A study of Danio rerio with 12 samples.

Results

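The comparison described here is of *apc* mutant with WT zebrafish larvae at 48 h post-fertilization (hpf), with rapamycin in the water of both. It rests on 6 of the 12 RNA-seq libraries of the study, 3 of mutant and 3 of WT larvae, which were chosen by the genotype and treatment in their labels. Mutant larvae were homozygous for *apc* mcr, a truncating allele, and received 100 nM rapamycin from 24 hpf until harvest at 48 hpf. WT larvae received the same dose for the same time. They pooled wild-type embryos with heterozygous carriers, since homozygotes were picked out by their bent body axis at 24 hpf. The other 6 libraries came from mutant and WT larvae given 0.1% DMSO as vehicle, and are used to estimate the spread between replicates and for values set side by side. Each library was made from the poly-A RNA of a pool of 20 whole larvae, and the larvae came from 3 clutches. A lower value can therefore mean fewer cells of a type or less RNA per cell, which cannot be told apart in whole larvae.

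Apc is a scaffold of the complex that marks β-catenin for destruction. When the complex fails, β-catenin accumulates and, with Tcf and Lef factors, switches on target genes, many of which encode inhibitors that feed back on Wnt signalling. Rapamycin blocks mTORC1, a kinase complex that couples nutrients and growth factors to protein synthesis, and Gsk3, which works with Apc, is one of the kinases that restrain mTORC1. Neural crest cells that leave the hindbrain fill the pharyngeal arches and form the cartilages of the jaw, so the genes of these tissues are among those described.

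Mutant libraries held between 73243315 and 82364863 counts in all, and WT libraries between 51692772 and 79553529. Values per library are TMM-scaled CPM, a gene's counts as a share of the scaled total of its library, in the order of replicates 1, 2 and 3. Means are given ± SD over 3 libraries. CPM compare libraries for 1 gene and not genes with each other, since they are not divided by gene length. WT libraries were less alike than mutant libraries, with correlations over genes of 0.984 to 0.987 among mutant and 0.938 to 0.969 among WT libraries. WT replicate 2 spent 12.9% of its counts on 1 gene, *zgc:158463*, annotated as an rRNA gene in RefSeq, against 0.134 to 0.39% in the other 11 libraries of the study. WT replicate 3 stood apart on the second principal component, which took 20.4% of the variance. Genes at least 4-fold above or below each of the other 5 libraries numbered 21 to 30 for a mutant library, and 37, 167 and 152 for WT replicates 1, 2 and 3. The plot of deviations by gene list shows where WT replicate 3 differed from the other WT libraries. On the log2 scale, its guidance genes lay a median of 1.06 below the mean of the other WT libraries. Its genes of the mitochondrial respiratory chain lay a median of 0.78 above that mean. Every call below was therefore also made without each of the 6 libraries in turn.

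**Figure D1:**
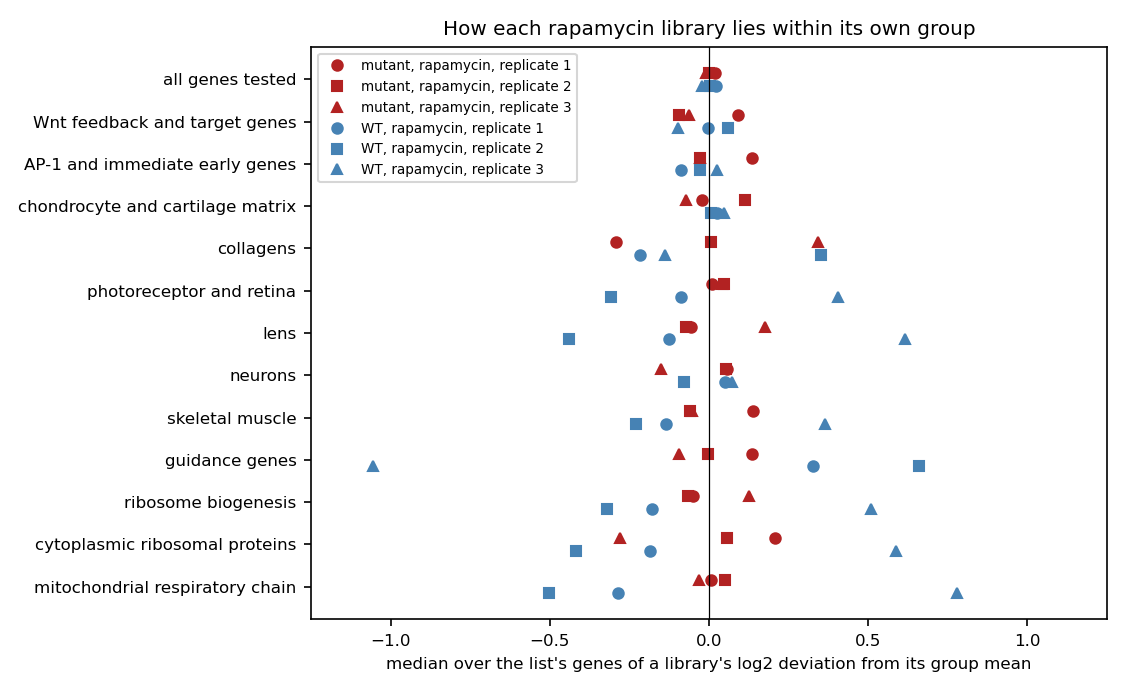
Median over the genes of a list of each rapamycin library's log2 difference from the mean of the other libraries of its group. The axis label calls this a deviation from the group mean, but the library itself is left out of that mean. Mutant libraries are in red above WT libraries in blue, with a marker shape for each replicate. WT replicate 3 (blue triangle) lies at −1.06 for guidance genes and at 0.59 and 0.78 for ribosomal proteins and the respiratory chain, while all 6 libraries lie within 0.03 of 0 over all genes tested.

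The *apc* transcript did not separate the groups. The gene, APC (ENSDARG00000058868), had 7439, 6164 and 5761 counts in mutant larvae, against 10761, 6448 and 3808 counts in WT larvae (log2 fold change −0.42, SE 0.23, adjusted p = 0.264 with edgeR). A truncating allele need not change the level of its transcript, so this gene does not check the labels. Of 49 Wnt target genes, 29 were higher in every mutant than in any WT library, and 7 were lower in every mutant library. Over all genes tested these shares were 15.3% and 13.7%. The list was chosen with earlier results of these data known, so it is no independent check of the labels.

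Calls come from the quasi-likelihood test of edgeR in a model of all 4 groups, and required a Benjamini-Hochberg adjusted p under 0.05 together with a change of at least 2-fold. Of 22841 genes tested, 1746 (7.64%) were called, of which 878 (3.84%) were higher in mutant larvae and 868 (3.8%) were lower. The 6 libraries fell into 2 groups that did not overlap for 29.1% of all genes tested. Of the called genes, 620 higher (2.71% of those tested) and 457 lower (2%) were called in the same direction whichever of the 6 libraries was left out, written below as called without each library in turn. Where leaving out 1 library ended a call, or moved the fold change by more than 1.5 times, that library is named beside the gene. Without WT replicate 3, 968 of 23075 genes were higher (4.2%) and 1198 lower (5.19%). Because replicate pools may share more than their genotype, p-values measure the spread between these pools. The plot of calls by list gives the 49 gene lists in which the called genes are grouped below. Counts of a list are to be read against the shares over all genes tested, 3.84% higher and 3.8% lower. The lists were chosen with earlier results of these data known. Of the 1714 tested genes in any list, 10.6% were called higher and 7.23% lower. A list near these shares is not set apart from the other lists.

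**Figure D2:**
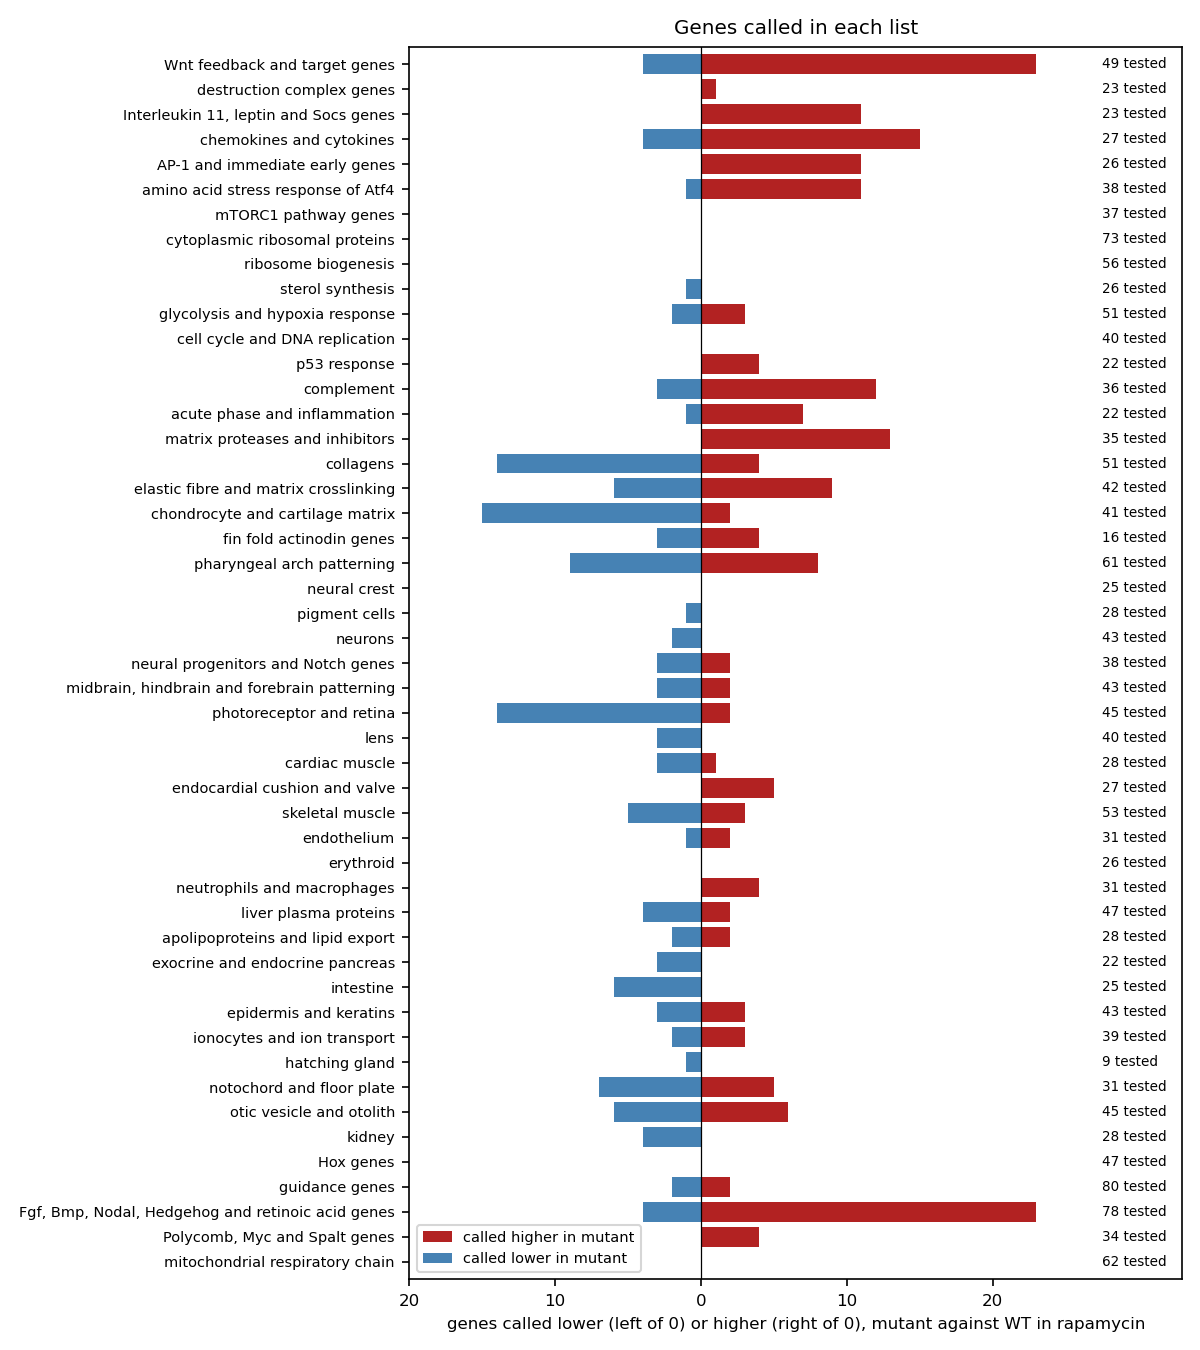
Number of genes in each of 49 lists called higher (red, right of 0) or lower (blue, left of 0) in mutant than in WT larvae given rapamycin, with the number tested at the right. Wnt feedback and Fgf, Bmp and related signalling genes have 23 called higher each, cartilage and photoreceptor genes have 15 and 14 called lower, and ribosomal protein, Hox, cell cycle and respiratory chain genes have none.

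The extremes were taken among called genes that averaged 100 counts or more per rapamycin library, had groups that did not overlap and were called also without WT replicate 3. The 15 lowest of these included matrix genes of cartilage, connective tissue and cornea. The lowest, *matn1*, which encodes the cartilage protein matrilin 1, had 0.320, 0.238 and 0.320 CPM in mutant larvae, against 24.4, 21.5 and 53.1 CPM in WT larvae (log2 fold change −6.81, SE 0.45, adjusted p = 2.23e-06). A tenascin gene of connective tissue, *tnxba*, had 0.268, 0.213 and 0.227 CPM in mutant larvae, against 16.1, 13.4 and 15.8 CPM in WT larvae (log2 fold change −5.99, SE 0.29, adjusted p = 5.99e-07). Mutant libraries were all below WT libraries in both genes, which the choice of these genes required. An Fgf-binding protein gene, *fgfbp2b*, had 1.496, 2.15 and 1.17 CPM in mutant larvae, against 87.5, 80.6 and 134 CPM in WT larvae (log2 fold change −5.97, SE 0.32, adjusted p = 7.39e-07). *emilin3a*, an elastic fibre gene expressed in the zebrafish notochord, had 0.537, 0.701 and 0.973 CPM in mutant larvae, against 46.7, 36.2 and 46.7 CPM in WT larvae (log2 fold change −5.87, SE 0.29, adjusted p = 5.99e-07). Keratocan (*kera*), a proteoglycan of the cornea, had 3.64, 2.43 and 1.84 CPM in mutant larvae, against 84.4, 62.5 and 55.3 CPM in WT larvae (log2 fold change −4.67, SE 0.43, adjusted p = 1.59e-05). The fatty acid binding protein gene *fabp11b* had 0.984, 0.726 and 0.813 CPM in mutant larvae, against 32.6, 20.3 and 35.1 CPM in WT larvae (log2 fold change −5.12, SE 0.37, adjusted p = 2.93e-06). Further genes among the 15 lowest were *si:ch211-133n4.6* (−5.63), *si:ch211-229d2.5* (−5.12), ENSDARG00000087345 (−4.52, and −3.63 without WT replicate 3) and *si:ch211-255g12.6* (−5.45), an lncRNA in RefSeq. These 10 were called without each library in turn. The other 5 of the 15 rested on WT replicate 2 and are given at the end.

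The 15 highest log2 fold changes, chosen in the same way, belonged to 4 cytokine genes, 1 Wnt inhibitor gene, 1 Polycomb gene and 9 others. The Wnt deacylase gene *notum1a* had 312, 182 and 358 CPM in mutant larvae, against 9.42, 7.18 and 20.7 CPM in WT larvae (log2 fold change 4.51, SE 0.45, adjusted p = 3.02e-05, 5.10 without WT replicate 3). A chromobox gene of Polycomb complexes, *cbx7a*, had 95.2, 95.9 and 88.5 CPM in mutant larvae, against 2.48, 1.36 and 6.91 CPM in WT larvae (log2 fold change 4.69, SE 0.64, adjusted p = 0.000307, 5.57 without WT replicate 3). WT replicate 3 was the highest of the WT libraries in 14 of the 15 highest genes, and in 406 of all 878 genes called higher, against 242 for WT replicate 1 and 230 for WT replicate 2. Among the 15 highest, every mutant library was above all 3 WT libraries, but the choice of these genes required this. The tandem genes *jac8* (log2 fold change 5.20, SE 0.85, adjusted p = 0.00113, 6.18 without WT replicate 3) and *jac9* (log2 fold change 5.67, SE 0.96, adjusted p = 0.00146, 6.77 without WT replicate 3) were both lowest in mutant replicate 3 among mutant libraries, *jac8* having 8.72, 8.60 and 2.87 CPM in mutant larvae, against 0.123, 0.0425 and 0.369 CPM in WT larvae. *loc564660* had 546, 437 and 155 counts in mutant larvae, against 4, 0 and 8 counts in WT larvae (log2 fold change 6.21, SE 0.97, adjusted p = 0.000848, 7.24 without WT replicate 3). A membrane-spanning 4-domain gene, *ms4a17a.4*, had 18.6, 20.9 and 16.8 CPM in mutant larvae, against 0.381, 0.0638 and 1.14 CPM in WT larvae (log2 fold change 5.12, SE 0.77, adjusted p = 0.000629, 6.20 without WT replicate 3). The rest of the 15, besides cytokines named below, have no descriptive name and lay at 4.55 (ENSDARG00000092704), 4.80 (*si:ch1073-15f12.3*, and 5.46 without WT replicate 3), 4.86 (*si:dkey-182g1.6*, and 5.52 without WT replicate 3), 5.29 (*si:dkey-1k23.3*) and 4.69 (*si:ch73-56d11.3*). Among these, *si:dkey-1k23.3* had 350, 332 and 186 counts in mutant larvae, against 1, 1 and 15 counts in WT larvae, and *si:ch73-56d11.3* had 251, 253 and 227 counts in mutant larvae, against 2, 0 and 20 counts in WT larvae. The size of both changes depends on WT replicate 3, since without it they were 7.75 and 7.53, with at most 2 WT counts left, and *si:dkey-1k23.3* was at 4.66 without WT replicate 1. All 15 were called without each library in turn. Members of tandem families share sequence, and how the authors' counting split their reads is not known, so values of single copies are uncertain here and for the *ccl19*, *c3a*, crystallin and *tnni2* genes below.

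**Figure D3:**
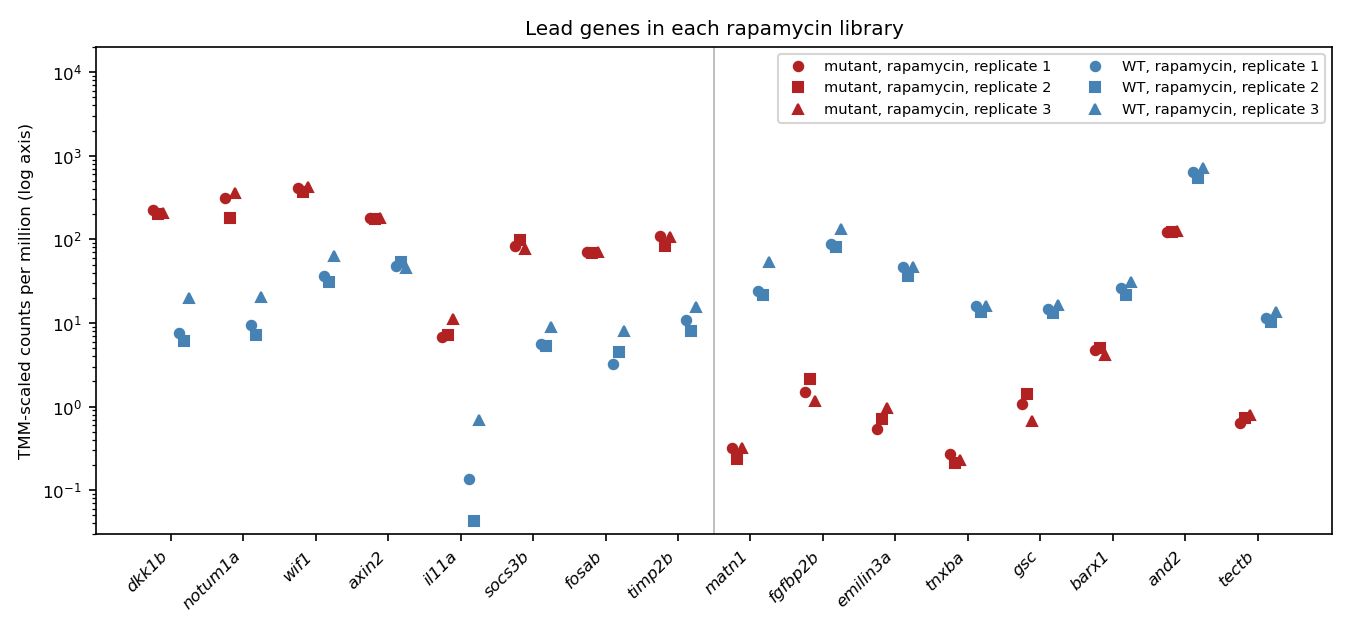
TMM-scaled CPM on a log axis for 8 genes called higher (left of the line) and 8 called lower (right) in each rapamycin library, mutant in red left of WT in blue, with a marker shape for each replicate. Mutant and WT libraries do not overlap in any of the 16 genes. The genes were picked for the plot, several of them from extremes for which this was required. Over all genes tested, the groups did not overlap for 29.1%. WT replicate 3 (blue triangle) is the highest WT library in 7 of the 8 genes on the left, *axin2* being the exception.

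Wnt target genes, among them those that feed back on the pathway, were called more often higher than lower in mutant larvae. Of 49 tested, 23 were called higher and 4 lower, 20 and 3 of them without each library in turn, and the median log2 fold change was 0.95, against −0.03 over all genes tested. Secreted inhibitors led the list. The Lrp-binding antagonist *dkk1b* had 227, 200.4 and 206 CPM in mutant larvae, against 7.67, 6.08 and 20.02 CPM in WT larvae (log2 fold change 4.23, SE 0.46, adjusted p = 6.45e-05, 4.95 without WT replicate 3). Its paralog *dkk1a* (log2 fold change 4.40, SE 0.48, adjusted p = 6.37e-05, 5.19 without WT replicate 3), the ligand-binding *wif1* (log2 fold change 3.21, SE 0.27, adjusted p = 8.69e-06) and *notum1b* (log2 fold change 3.52, SE 0.32, adjusted p = 1.42e-05) rose with it. The membrane inhibitor APCDD1 (ENSDARG00000098203) had 2.16, 1.92 and 2.25 CPM in mutant larvae, against 0.0615, 0.0213 and 0.285 CPM in WT larvae (log2 fold change 4.08, SE 0.68, adjusted p = 0.00126, 5.48 without WT replicate 3). Inside the cell, *axin2*, the scaffold of the destruction complex, had 179.6, 173 and 182 CPM in mutant larvae, against 47.8, 53.1 and 45.2 CPM in WT larvae (log2 fold change 1.87, SE 0.11, adjusted p = 1.22e-06). The Dishevelled-binding *nkd1* had 96.7, 75.8 and 78.3 CPM in mutant larvae, against 18.98, 18.3 and 12.2 CPM in WT larvae (log2 fold change 2.34, SE 0.17, adjusted p = 2.92e-06). Wnt receptors are removed by the ligase encoded by *znrf3*, which had 45.8, 42.0 and 49.5 CPM in mutant larvae, against 15.8, 14.2 and 9.74 CPM in WT larvae (log2 fold change 1.79, SE 0.16, adjusted p = 1.59e-05). They are stabilized by the R-spondin encoded by *rspo2*, which had 28.9, 24.4 and 32.6 CPM in mutant larvae, against 7.34, 7.08 and 8.05 CPM in WT larvae (log2 fold change 1.93, SE 0.16, adjusted p = 8.68e-06). Transcription factors of the pathway included *tcf7* (log2 fold change 1.84, SE 0.29, adjusted p = 0.000788) and *sp5a* (log2 fold change 2.41, SE 0.19, adjusted p = 5.34e-06), and *ccnd2b*, a cyclin D gene, rose as well (log2 fold change 2.71, SE 0.19, adjusted p = 2.69e-06). LEF1 (ENSDARG00000031894) had an adjusted p of 0.00516 at a log2 fold change of 0.87, less than 2-fold. The 4 called lower were *sfrp1a* (log2 fold change −1.39, SE 0.16, adjusted p = 7.16e-05), *sfrp1b* (log2 fold change −1.58, SE 0.23, adjusted p = 0.000483) and *frzb* (log2 fold change −1.503, SE 0.22, adjusted p = 0.000549), which encode secreted Frizzled-related proteins, and the R-spondin gene *rspo1* (log2 fold change −1.45, SE 0.36, adjusted p = 0.0161, not called without mutant replicate 1 or mutant replicate 3). Among the 23 genes of the destruction complex and β-catenin, only *axin2* was called, while both β-catenin genes had an adjusted p under 0.05 below 2-fold, *ctnnb2* at 0.84 and CTNNB1 (ENSDARG00000014571) at 0.46.

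Of 23 genes of the Interleukin 6 and leptin cytokine families, their receptors, kinases and feedback inhibitors, 11 were called higher and none lower, 10 of them without each library in turn, with a median of 0.93, and 12 were not called. The ligand gene *il11b* had 4.52, 3.44 and 4.67 CPM in mutant larvae, against 0.0738, 0.0213 and 0.0503 CPM in WT larvae (log2 fold change 6.29, SE 0.80, adjusted p = 0.000186). Its paralog *il11a* had 6.84, 7.21 and 11.09 CPM in mutant larvae, against 0.135, 0.0425 and 0.688 CPM in WT larvae (log2 fold change 4.84, SE 0.78, adjusted p = 0.000996, 6.39 without WT replicate 3). Leptin genes were near the limit of detection in WT larvae. *lepa* had 5.06, 5.97 and 7.38 CPM in mutant larvae, against 0.123, 0.213 and 0.302 CPM in WT larvae (log2 fold change 4.88, SE 0.58, adjusted p = 0.00012). *lepb* had 105, 141 and 99 counts in mutant larvae, against 0, 0 and 11 counts in WT larvae, so that the size of its log2 fold change (4.58) depends on the 11 counts of WT replicate 3, without which no WT count is left and no fold is given. The shared receptor *il6st* had 52.8, 50.9 and 40.3 CPM in mutant larvae, against 11.3, 13.8 and 3.74 CPM in WT larvae (log2 fold change 2.32, SE 0.35, adjusted p = 0.000651). The kinase gene *jak1* had 102, 124 and 101 CPM in mutant larvae, against 41.8, 46.9 and 33.5 CPM in WT larvae (log2 fold change 1.42, SE 0.15, adjusted p = 4.17e-05), and the transcription factor *stat3* averaged 66.0 ± 9.78 CPM in mutant and 16.0 ± 6.97 CPM in WT larvae (log2 fold change 2.04, SE 0.28, adjusted p = 0.000371). Both *socs3* genes, feedback inhibitors of this pathway, were higher in every mutant than in any WT library. *socs3b* had 82.2, 98.0 and 77.8 CPM in mutant larvae, against 5.67, 5.25 and 8.86 CPM in WT larvae (log2 fold change 3.70, SE 0.32, adjusted p = 9.31e-06). *socs3a* had 30.2, 31.7 and 27.4 CPM in mutant larvae, against 1.43, 1.02 and 3.12 CPM in WT larvae (log2 fold change 3.998, SE 0.41, adjusted p = 3.46e-05, 4.59 without WT replicate 3), with the same counts deposited under 2 Ensembl genes, ENSDARG00000025428 and ENSDARG00000104400, which both count among the 11. The cytokine gene *clcf1* was called as well (log2 fold change 1.45, SE 0.36, adjusted p = 0.0154, not called without mutant replicate 2).

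Chemokines and other cytokines moved in both directions. Of 27 tested, 15 were called higher and 4 lower, 10 and 2 of them without each library in turn, with a median of 1.11. The chemokine gene *ccl19a.2* had 6.45, 11.4 and 9.38 CPM in mutant larvae, against 0.0369, 0.128 and 0.369 CPM in WT larvae (log2 fold change 5.72, SE 0.91, adjusted p = 0.000927, 6.97 without WT replicate 3). *cxcl18b*, a chemokine of inflamed fish epithelia, had 7.11, 7.79 and 8.01 CPM in mutant larvae, against 1.22, 1.19 and 1.38 CPM in WT larvae (log2 fold change 2.60, SE 0.18, adjusted p = 2.69e-06). Macrophage and osteoclast growth factors were higher. *tnfsf11*, which encodes RANKL, had 6.93, 5.91 and 8.50 CPM in mutant larvae, against 0.369, 0.298 and 0.570 CPM in WT larvae (log2 fold change 4.096, SE 0.37, adjusted p = 1.37e-05). *csf1b* averaged 23.5 ± 3.63 CPM in mutant and 5.02 ± 1.01 CPM in WT larvae (log2 fold change 2.22, SE 0.21, adjusted p = 1.86e-05), and *csf1a* (log2 fold change 1.52, SE 0.14, adjusted p = 1.26e-05) and *il34* (log2 fold change 1.56, SE 0.36, adjusted p = 0.0107, not called without mutant replicate 3) rose as well. The inflammatory cytokine genes *tnfb* (log2 fold change 1.98, SE 0.45, adjusted p = 0.0101, 2.62 without WT replicate 3) and *il1b* (log2 fold change 1.55, SE 0.44, adjusted p = 0.0284, 2.18 without WT replicate 2, not called without mutant replicate 1, mutant replicate 2, mutant replicate 3 or WT replicate 1) were called at low levels, *il1b* with 42, 42 and 57 counts in mutant larvae, against 8, 18 and 10 counts in WT larvae. In the other direction, *ccl25b* had 2.98, 2.19 and 1.253 CPM in mutant larvae, against 13.7, 11.6 and 17.1 CPM in WT larvae (log2 fold change −2.72, SE 0.34, adjusted p = 0.000166). The chemokine gene *cxcl12b* had 3.71, 3.48 and 2.51 CPM in mutant larvae, against 9.65, 9.40 and 5.50 CPM in WT larvae (log2 fold change −1.34, SE 0.27, adjusted p = 0.00505). *cxcl8a* (log2 fold change −1.21, SE 0.30, adjusted p = 0.0158, not called without mutant replicate 2, mutant replicate 3 or WT replicate 1) and *csf3a* (log2 fold change −1.38, SE 0.36, adjusted p = 0.0199, not called without mutant replicate 2, mutant replicate 3 or WT replicate 1) were lower as well, while *cxcl8b.1*, a paralog of *cxcl8a*, was higher (log2 fold change 3.02, SE 0.76, adjusted p = 0.0163, 5.16 without WT replicate 1, not called without mutant replicate 1 or mutant replicate 2). Without mutant replicate 2, mutant replicate 3 or WT replicate 1, 2 in place of 4 were called lower.

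All called members of the AP-1 and immediate early list were higher, 11 of 26, and all 11 without each library in turn, with a median of 0.93. AP-1 factors are dimers of Fos and Jun proteins that respond to growth factors and stress. *fosab* had 69.8, 68.7 and 70.0 CPM in mutant larvae, against 3.26, 4.53 and 8.07 CPM in WT larvae (log2 fold change 3.72, SE 0.36, adjusted p = 2.27e-05). The Fos-related genes *fosl2* (log2 fold change 3.60, SE 0.27, adjusted p = 4.41e-06) and *fosl1a* (log2 fold change 3.36, SE 0.20, adjusted p = 1.57e-06) and the Jun genes *junba* (log2 fold change 3.34, SE 0.34, adjusted p = 3.42e-05), *junbb* (log2 fold change 2.78, SE 0.23, adjusted p = 8.05e-06) and *jun* (log2 fold change 1.93, SE 0.17, adjusted p = 1.33e-05) rose with it. The stress-induced *atf3* had 34.6, 30.2 and 31.1 CPM in mutant larvae, against 3.63, 2.72 and 3.002 CPM in WT larvae (log2 fold change 3.35, SE 0.20, adjusted p = 1.22e-06). *egr1*, an immediate early gene, did not reach 2-fold (log2 fold change 0.97, SE 0.18, adjusted p = 0.0028).

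Signalling genes of the Fgf, Bmp, Nodal, Hedgehog and retinoic acid pathways were called higher 23 times and lower 4 times among 78 tested, 18 and 1 of them without each library in turn, with a median of 0.47. The Fgf ligands *fgf20a* (log2 fold change 2.87, SE 0.26, adjusted p = 1.28e-05), *fgf10a* (log2 fold change 2.11, SE 0.18, adjusted p = 9.3e-06), *fgf3* (log2 fold change 1.74, SE 0.13, adjusted p = 4.71e-06) and *fgf24* (log2 fold change 1.45, SE 0.16, adjusted p = 7e-05) rose. Genes that respond to Fgf rose as well. The Erk phosphatase *dusp6* had 169.9, 163 and 170.0 CPM in mutant larvae, against 50.6, 49.4 and 55.2 CPM in WT larvae (log2 fold change 1.70, SE 0.10, adjusted p = 1.26e-06). The inhibitor *spry4* (log2 fold change 1.65, SE 0.14, adjusted p = 7.76e-06) and the transcription factor *etv4* (log2 fold change 1.38, SE 0.14, adjusted p = 3.49e-05) rose with it. Both Bmp ligands and Bmp antagonists were higher. *bmp2b* averaged 60.2 ± 7.56 CPM in mutant and 18.8 ± 5.70 CPM in WT larvae (log2 fold change 1.68, SE 0.20, adjusted p = 9.91e-05), and *bmp4* 42.1 ± 3.17 CPM in mutant and 20.3 ± 0.818 CPM in WT larvae (log2 fold change 1.06, SE 0.09, adjusted p = 1.29e-05). The antagonists *chd* (log2 fold change 2.47, SE 0.26, adjusted p = 3.92e-05), *grem1b* (log2 fold change 2.70, SE 0.30, adjusted p = 7.49e-05) and *nog2* (log2 fold change 1.75, SE 0.18, adjusted p = 3.84e-05) rose, whereas *nog3* was lower (log2 fold change −1.18, SE 0.19, adjusted p = 0.00106, not called without WT replicate 3). Retinoic acid is made by the enzyme encoded by *aldh1a2*, which had 165, 142 and 152 CPM in mutant larvae, against 51.3, 45.1 and 61.7 CPM in WT larvae (log2 fold change 1.54, SE 0.14, adjusted p = 1.59e-05). The Nodal antagonist *lft1* had 1.61, 1.41 and 1.28 CPM in mutant larvae, against 0.111, 0.0425 and 0.268 CPM in WT larvae (log2 fold change 3.31, SE 0.70, adjusted p = 0.00592, 4.09 without WT replicate 3). The retinoic acid receptor gene *rargb* was called lower, although its groups overlapped (0.537, 0.613 and 0.320 CPM in mutant larvae, against 1.77, 3.27 and 0.520 CPM in WT larvae, log2 fold change −1.91, SE 0.50, adjusted p = 0.0211, not called without mutant replicate 1, mutant replicate 3 or WT replicate 2, −1.26 without WT replicate 2). Without mutant replicate 3 or without WT replicate 3, 2 in place of 4 were called lower.

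Cartilage genes were mostly called lower where they were called. Of 41 tested, 15 were called lower and 2 higher, 13 and 1 of them without each library in turn, with a median of −0.73. Beside *matn1* and *fgfbp2b* above, the large proteoglycan of cartilage, aggrecan, had 0.933, 0.864 and 0.680 CPM in mutant larvae, against 12.3, 14.99 and 8.34 CPM in WT larvae for *acana* (log2 fold change −3.84, SE 0.26, adjusted p = 2.23e-06). The small proteoglycan epiphycan (*epyc*) had 36.9, 45.9 and 39.98 CPM in mutant larvae, against 84.0, 106 and 105 CPM in WT larvae (log2 fold change −1.26, SE 0.18, adjusted p = 0.000361). The matrilins *matn3b* (log2 fold change −1.75, SE 0.26, adjusted p = 0.000537) and *matn4* (log2 fold change −1.55, SE 0.13, adjusted p = 7.54e-06) were lower, and so was *lect1*, which encodes chondromodulin (log2 fold change −1.503, SE 0.17, adjusted p = 8.98e-05). The collagen IX gene *col9a1a* had 15.9, 18.7 and 19.4 CPM in mutant larvae, against 54.2, 51.2 and 99.0 CPM in WT larvae (log2 fold change −1.92, SE 0.24, adjusted p = 0.000169). *acanb* was called lower with overlapping groups (1.51, 3.10 and 1.85 CPM in mutant larvae, against 8.78, 8.67 and 2.43 CPM in WT larvae, log2 fold change −1.62, SE 0.43, adjusted p = 0.0204, not called without mutant replicate 1, mutant replicate 3 or WT replicate 1). Higher were *ihhb*, a Hedgehog ligand gene (0.844, 1.88 and 1.68 CPM in mutant larvae, against 0.295, 0.298 and 0.369 CPM in WT larvae, log2 fold change 2.19, SE 0.56, adjusted p = 0.0172, not called without mutant replicate 2, mutant replicate 3 or WT replicate 1), and *susd5*, which encodes a hyaluronan-binding protein (2.48, 4.24 and 3.43 CPM in mutant larvae, against 0.861, 1.72 and 0.755 CPM in WT larvae, log2 fold change 1.62, SE 0.38, adjusted p = 0.0112).

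Fin fold genes went in both directions. The 3 actinodin genes, which encode the fibrous proteins that stiffen the larval fin fold of fish, were all lower. *and1* had 139, 150.01 and 138 CPM in mutant larvae, against 605, 513 and 613 CPM in WT larvae (log2 fold change −2.02, SE 0.15, adjusted p = 4.66e-06). *and2* had 124, 121 and 125 CPM in mutant larvae, against 638, 536 and 721 CPM in WT larvae (log2 fold change −2.36, SE 0.16, adjusted p = 2.23e-06). *and3* had 34.3, 34.8 and 27.3 CPM in mutant larvae, against 217, 175 and 252 CPM in WT larvae (log2 fold change −2.74, SE 0.26, adjusted p = 1.94e-05). The lowest WT library was far above the highest mutant library in each. Fin growth genes of the same list went the other way, among them *sp8a* (29.7 ± 1.92 CPM in mutant and 12.7 ± 1.45 CPM in WT larvae, log2 fold change 1.23, SE 0.13, adjusted p = 5.35e-05) and *fgf24* above, so that 4 of the 16 tested were called higher and 3 lower. The other genes called higher were the fin fold matrix genes *hmcn1* (log2 fold change 1.31, SE 0.32, adjusted p = 0.0133, not called without mutant replicate 3) and FBLN1 (ENSDARG00000103311, log2 fold change 1.005, SE 0.18, adjusted p = 0.00246, not called without mutant replicate 3 or WT replicate 3).

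Patterning genes of the pharyngeal arches were called in both directions, 8 higher and 9 lower of 61, and 6 and 5 of them without each library in turn. Homeobox genes of the arch mesenchyme were lowest. *gsc* had 1.06, 1.40 and 0.666 CPM in mutant larvae, against 14.9, 13.1 and 16.5 CPM in WT larvae (log2 fold change −3.83, SE 0.25, adjusted p = 2.23e-06). *barx1*, which marks cells that form jaw cartilage and joints, had 4.69, 5.07 and 4.09 CPM in mutant larvae, against 26.3, 21.9 and 30.6 CPM in WT larvae (log2 fold change −2.51, SE 0.16, adjusted p = 2.17e-06). Forkhead genes of the arches were lower too, namely *foxl1* (log2 fold change −1.78, SE 0.20, adjusted p = 7.59e-05), *foxf2a* (log2 fold change −1.59, SE 0.17, adjusted p = 4.73e-05), *foxc1b* (log2 fold change −1.28, SE 0.22, adjusted p = 0.00162) and *foxf1* (log2 fold change −1.08, SE 0.16, adjusted p = 0.000538, not called without mutant replicate 3). The LIM homeobox genes *lhx6* (log2 fold change −1.08, SE 0.15, adjusted p = 0.000449, not called without WT replicate 1) and LHX8 (ENSDARG00000002330, log2 fold change −1.003, SE 0.19, adjusted p = 0.00294, not called without mutant replicate 2, mutant replicate 3, WT replicate 1 or WT replicate 3) were just past 2-fold. Other homeobox genes of the same list were higher, namely *msx1a* (log2 fold change 1.79, SE 0.20, adjusted p = 6.45e-05), *msx1b* (log2 fold change 1.38, SE 0.18, adjusted p = 0.000261), *dlx3b* (log2 fold change 1.12, SE 0.12, adjusted p = 6.78e-05) and, among zinc finger genes, OSR2 (ENSDARG00000038006, log2 fold change 1.005, SE 0.18, adjusted p = 0.00187, not called without mutant replicate 1, mutant replicate 2, WT replicate 1 or WT replicate 2). RNA of whole larvae does not show in which tissue these genes rose. The endothelin receptor gene *ednrab* was higher (5.27 ± 1.26 CPM in mutant and 1.61 ± 0.101 CPM in WT larvae, log2 fold change 1.71, SE 0.31, adjusted p = 0.0021), while its ligand gene *edn1* had a log2 fold change of −0.83 (adjusted p = 0.0164), short of 2-fold. None of 25 general neural crest genes was called, and 1 of 28 pigment cell genes was, the melanosome gene *pmelb* (26.7, 19.1 and 26.3 CPM in mutant larvae, against 65.7, 55.3 and 67.8 CPM in WT larvae, log2 fold change −1.39, SE 0.15, adjusted p = 4.75e-05). Over all genes tested, 7.64% were called, and lists this short would hold few called genes at that share. At an adjusted p under 0.05, 3 neural crest genes were higher and 3 lower. Without mutant replicate 3 or WT replicate 2, and with the replicate block, 1 neural crest gene was called higher. Neural crest genes of WT replicate 3 had a median log2 difference of −0.47 from the mean of the other WT libraries.

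**Figure D4:**
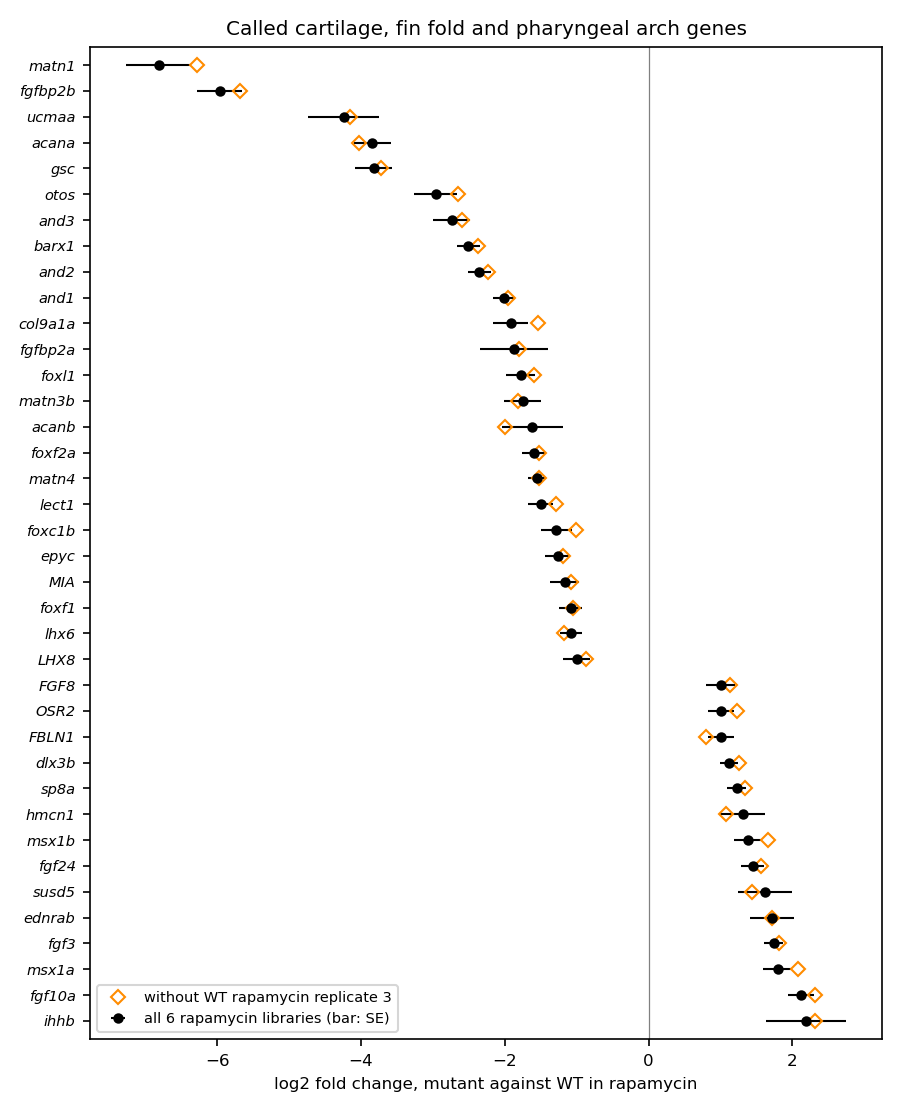
Log2 fold change of mutant against WT larvae in rapamycin for 38 of the 39 called genes of the cartilage, fin fold and pharyngeal arch lists, as black points with SE bars from all 6 libraries and as open diamonds without WT replicate 3. All 38 keep their sign, 14 above 0 and 24 below 0, and *matn1* moves to −6.28 from −6.81.

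Collagen genes went in both directions. Of 51 tested, 14 were called lower and 4 higher, 11 and 3 of them without each library in turn, with a median of −0.37. Among those called lower, *col7a1*, the anchoring fibril collagen, had 4.05, 3.10 and 4.16 CPM in mutant larvae, against 17.1, 20.3 and 19.6 CPM in WT larvae (log2 fold change −2.33, SE 0.30, adjusted p = 0.000209). *col17a1a*, of hemidesmosomes, had 45.8, 39.6 and 34.004 CPM in mutant larvae, against 166, 142 and 127 CPM in WT larvae (log2 fold change −1.87, SE 0.19, adjusted p = 3.61e-05). The basement membrane collagens *col4a3* (log2 fold change −2.65, SE 0.42, adjusted p = 0.000974) and *col4a4* (log2 fold change −3.64, SE 0.47, adjusted p = 0.000213) were called lower at low levels. *col8a2* had 1.253, 1.58 and 0.920 CPM in mutant larvae, against 9.45, 9.40 and 7.03 CPM in WT larvae (log2 fold change −2.78, SE 0.23, adjusted p = 7.54e-06), and *col28a1a* averaged 2.53 ± 0.447 CPM in mutant and 9.80 ± 0.579 CPM in WT larvae (log2 fold change −1.95, SE 0.16, adjusted p = 7.76e-06). Genes for the 3 chains of collagen VI, which assemble into 1 microfibril, were all higher. *col6a1* had 311, 284 and 395 CPM in mutant larvae, against 95.1, 95.7 and 79.4 CPM in WT larvae (log2 fold change 1.87, SE 0.15, adjusted p = 5.34e-06). *col6a2* had 191, 171 and 230.5 CPM in mutant larvae, against 52.6, 62.4 and 35.4 CPM in WT larvae (log2 fold change 1.98, SE 0.18, adjusted p = 1.78e-05). *col6a3* (ENSDARG00000077139) had 184, 185 and 263 CPM in mutant larvae, against 54.1, 76.2 and 58.3 CPM in WT larvae (log2 fold change 1.75, SE 0.19, adjusted p = 6.71e-05), and a further gene named *col6a3* (ENSDARG00000095915) was not called (log2 fold change 1.27, SE 0.58, adjusted p = 0.162, 2.56 without WT replicate 2).

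Both fibronectin genes were higher. *fn1b* had 886, 818 and 961 CPM in mutant larvae, against 158, 160.3 and 124 CPM in WT larvae (log2 fold change 2.59, SE 0.16, adjusted p = 1.67e-06), and *fn1a* averaged 243 ± 82.9 CPM in mutant and 55.2 ± 10.6 CPM in WT larvae (log2 fold change 2.14, SE 0.26, adjusted p = 0.000146). Of 42 elastic fibre and crosslinking genes, 9 were called higher and 6 lower, 6 and 5 of them without each library in turn. Paralogs moved in opposite directions. *emilin2a* had 67.2, 51.6 and 70.0 CPM in mutant larvae, against 7.05, 6.101 and 5.06 CPM in WT larvae (log2 fold change 3.37, SE 0.19, adjusted p = 9.48e-07), whereas *emilin2b* averaged 7.75 ± 0.950 CPM in mutant and 35.5 ± 5.49 CPM in WT larvae (log2 fold change −2.20, SE 0.16, adjusted p = 4.23e-06). Likewise *loxl2a* rose (log2 fold change 1.35, SE 0.20, adjusted p = 0.000613) while the crosslinking enzyme gene *loxa* fell (log2 fold change −1.54, SE 0.27, adjusted p = 0.00204). Fibrillin 1 (*fbn1*) rose as well (3.55 ± 0.815 CPM in mutant and 0.481 ± 0.231 CPM in WT larvae, log2 fold change 2.87, SE 0.37, adjusted p = 0.000194). Of 35 protease and inhibitor genes, 13 were called higher and none lower, 10 of them without each library in turn, with a median of 0.60. Without WT replicate 3, 12 were called higher and 2 lower, and the median was 0.38. Without mutant replicate 3, WT replicate 1 or WT replicate 2, 1 was called lower. The metalloprotease inhibitor *timp2b* had 109, 82.5 and 106 CPM in mutant larvae, against 10.96, 8.12 and 15.5 CPM in WT larvae (log2 fold change 3.10, SE 0.26, adjusted p = 9.26e-06). Proteases that cut matrix included *mmp9* (log2 fold change 2.27, SE 0.17, adjusted p = 5e-06), *mmp14b* (log2 fold change 1.46, SE 0.19, adjusted p = 0.000189), *adam8b* (log2 fold change 2.78, SE 0.15, adjusted p = 7.39e-07) and the aggrecanase-type genes *adamts1* (log2 fold change 2.36, SE 0.30, adjusted p = 0.000181) and *adamts15a* (log2 fold change 2.35, SE 0.21, adjusted p = 1.19e-05).

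Of 45 photoreceptor and retina genes, 14 were called lower and 2 higher, with a median of −0.85. Of these, 8 lower and 1 higher were called without each library in turn, and 11 were lower without WT replicate 3, which held the highest WT level of all of them but *otx5*. Retinoid cycle genes were among them. *rpe65a*, the isomerase of the pigment epithelium, had 2.99, 2.03 and 2.39 CPM in mutant larvae, against 11.2, 10.5 and 17.8 CPM in WT larvae (log2 fold change −2.42, SE 0.31, adjusted p = 0.000195). *rlbp1b*, a retinal carrier, had 1.496, 1.63 and 1.59 CPM in mutant larvae, against 8.28, 7.89 and 9.93 CPM in WT larvae (log2 fold change −2.47, SE 0.15, adjusted p = 1.67e-06). In photoreceptors, recoverin (*rcvrna*) had 0.601, 1.23 and 1.19 CPM in mutant larvae, against 4.11, 4.63 and 6.84 CPM in WT larvae (log2 fold change −2.37, SE 0.29, adjusted p = 0.000158). The transcription factor *crx* had 1.69, 1.90 and 1.64 CPM in mutant larvae, against 5.65, 3.19 and 6.76 CPM in WT larvae (log2 fold change −1.58, SE 0.27, adjusted p = 0.00143). *vsx1*, which specifies bipolar cells, had 28.0, 45.1 and 28.9 CPM in mutant larvae, against 121, 107 and 151 CPM in WT larvae (log2 fold change −1.89, SE 0.21, adjusted p = 6.19e-05). Visual pigment and arrestin genes were highest in WT replicate 3. Rhodopsin (*rho*) had 5.45, 4.08 and 5.09 CPM in mutant larvae, against 5.83, 8.37 and 16.6 CPM in WT larvae (log2 fold change −1.07, SE 0.32, adjusted p = 0.0377, not called without mutant replicate 1, mutant replicate 2, mutant replicate 3 or WT replicate 3). With the replicate number as a block its log2 fold change was −0.98, less than 2-fold (adjusted p = 0.0364). The red cone opsin *opn1lw2* had 1.38, 2.19 and 1.84 CPM in mutant larvae, against 4.34, 3.80 and 14.9 CPM in WT larvae (log2 fold change −2.09, SE 0.49, adjusted p = 0.0113, −1.16 without WT replicate 3, not called without mutant replicate 1). Arrestin (*sagb*) had 4.78, 5.97 and 8.01 CPM in mutant larvae, against 11.7, 12.5 and 44.8 CPM in WT larvae (log2 fold change −1.88, SE 0.49, adjusted p = 0.0195, not called without mutant replicate 1, mutant replicate 2 or WT replicate 3, −0.94 without WT replicate 3). Called higher were *prdm1a*, a factor that also acts in muscle and neural crest (78.8, 62.8 and 81.0 CPM in mutant larvae, against 27.1, 20.2 and 13.2 CPM in WT larvae, log2 fold change 1.88, SE 0.21, adjusted p = 7.32e-05), and *zgc:112320* at a low level (log2 fold change 2.43, SE 0.62, adjusted p = 0.0177, not called without mutant replicate 1 or mutant replicate 2, and 3.38 without WT replicate 1, when 1 and 2 WT counts remain). In the 6 rapamycin libraries alone, 9 of the 45 were called lower.

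In the lens, 3 of 40 genes (7.5%, against 3.8% of all genes) were called lower and none higher. An adjusted p under 0.05 in the lower direction was found for 13 of the 40, and for 8.28% of all genes. *crygm2f*, a γ-crystallin gene, had 0.115, 0.225 and 0.373 CPM in mutant larvae, against 0.984, 0.914 and 1.64 CPM in WT larvae (log2 fold change −2.31, SE 0.46, adjusted p = 0.00417). Called lower were 9 without WT replicate 2 and 6 without mutant replicate 2. Lens genes of WT replicate 2 had a median log2 difference of −0.44 from the mean of the other WT libraries, the lowest of the WT libraries. WT replicate 3 deviated more, at 0.62. Its lens genes summed to 6969 CPM, against 4495 and 3931 CPM in WT replicates 1 and 2. In mutant larvae this sum was 3659 to 4176 CPM. The lens median was −0.505 with all libraries, −0.36 without WT replicate 3 and −0.64 without WT replicate 2. Without WT replicate 3, 3 lens genes were called lower.

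Many neuronal genes were lower by less than 2-fold. Of 43 tested, 23 had an adjusted p under 0.05 and a lower level in mutant larvae and none a higher one, against 8.28% lower and 9.11% higher among all genes, but only 2 were called, and the median was −0.48. A stathmin gene of growing axons, STMN1 (ENSDARG00000004169), had 94.1, 98.9 and 95.8 CPM in mutant larvae, against 208, 187 and 269 CPM in WT larvae (log2 fold change −1.20, SE 0.13, adjusted p = 4.27e-05). The glutamate transporter gene *slc17a7a* had 0.665, 0.563 and 0.453 CPM in mutant larvae, against 1.39, 1.51 and 1.59 CPM in WT larvae (log2 fold change −1.41, SE 0.28, adjusted p = 0.00443). Of 38 progenitor and Notch genes, 3 were called lower and 2 higher (7.89% and 5.26%, against 3.8% and 3.84% of all genes). Among those called lower was *fabp7a*, a gene of radial glia, with 264, 294 and 325 CPM in mutant larvae, against 616, 651 and 1058 CPM in WT larvae (log2 fold change −1.40, SE 0.18, adjusted p = 0.00023). The neuronal differentiation factor *neurod1* had 61.1, 64.1 and 50.1 CPM in mutant larvae, against 132, 114 and 141 CPM in WT larvae (log2 fold change −1.14, SE 0.13, adjusted p = 7.4e-05). Of 43 brain patterning genes, the lowest was *rx3*, required to form the eyes and part of the hypothalamus in zebrafish (1.58, 1.48 and 0.533 CPM in mutant larvae, against 7.16, 6.46 and 10.01 CPM in WT larvae, log2 fold change −2.71, SE 0.36, adjusted p = 0.00024), followed by its relative *rx2* (log2 fold change −1.16, SE 0.21, adjusted p = 0.00253) and *nkx2.1* (log2 fold change −1.05, SE 0.20, adjusted p = 0.00283, not called without mutant replicate 3). Called higher in this list were PAX5 (ENSDARG00000037383, log2 fold change 1.02, SE 0.29, adjusted p = 0.0269, not called without mutant replicate 1, mutant replicate 2, mutant replicate 3, WT replicate 1 or WT replicate 3) and 1 of the FGF8 genes, ENSDARG00000039615 (log2 fold change 1.002, SE 0.20, adjusted p = 0.00497, not called without mutant replicate 1, mutant replicate 3 or WT replicate 2). Guidance genes were called 2 higher and 2 lower of 80 (2.5% each, against 3.84% and 3.8% of all genes). This count depends on WT replicate 3, whose guidance genes had the low median above, and without it 11 were called lower. Without WT replicate 2, 5 were called higher, and 4 with the replicate block.

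Muscle genes were called in both directions. Of 53 skeletal muscle genes, 5 were called lower and 3 higher, 5 and 2 of them without each library in turn. These were 9.43% and 5.66% of the list, against 3.8% and 3.84% of all genes. An adjusted p under 0.05 was found for 17 of the 53 in the lower and 3 in the higher direction. Of all genes, 8.28% and 9.11% had such a p, and the median of the list was −0.365. A myosin heavy chain gene, *myhb*, had 1.19, 2.13 and 1.31 CPM in mutant larvae, against 12.7, 12.5 and 17.02 CPM in WT larvae (log2 fold change −3.19, SE 0.23, adjusted p = 2.89e-06). The fast troponin I genes *tnni2b.2* (42.0 ± 1.46 CPM in mutant and 149.9 ± 45.8 CPM in WT larvae, log2 fold change −1.83, SE 0.18, adjusted p = 2.14e-05), *tnni2a.2* (log2 fold change −1.73, SE 0.32, adjusted p = 0.00265) and *tnni2a.3* (log2 fold change −2.79, SE 0.43, adjusted p = 0.000721) were lower. Telethonin (*tcap*), a Z-disc protein gene, had 56.2, 88.0 and 78.3 CPM in mutant larvae, against 3.09, 2.02 and 7.82 CPM in WT larvae (log2 fold change 4.102, SE 0.54, adjusted p = 0.000251, 4.85 without WT replicate 3). *myf5*, a factor of early myoblasts, had 12.2, 10.6 and 11.5 CPM in mutant larvae, against 3.21, 3.70 and 5.43 CPM in WT larvae (log2 fold change 1.47, SE 0.20, adjusted p = 0.000317). MYOG (ENSDARG00000009438) and MYOD1 (ENSDARG00000030110) were just short of 2-fold lower (adjusted p = 0.00264 and 0.000962, log2 fold changes −0.997 and −0.84). In the heart, 3 of 28 genes were called lower, led by the ventricular myosin gene *vmhcl* (10.26, 12.7 and 6.94 CPM in mutant larvae, against 51.5, 43.4 and 30.0 CPM in WT larvae, log2 fold change −2.06, SE 0.31, adjusted p = 0.000644), and 1 higher. With all libraries, 10.7% of heart genes were called lower and 3.57% higher, against 3.8% and 3.84% of all genes. An adjusted p under 0.05 was found for 9 of the 28 in the lower and 1 in the higher direction. Without WT replicate 2, 5 heart genes were called lower.

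Of 27 genes of the endocardial cushion, the tissue that forms heart valves, 5 were called higher and none lower, all 5 without each library in turn, and 22 were not called, with a median of 0.33. Hyaluronan, which fills the cushion, is made by the product of *has2*, which had 9.33, 8.21 and 12.4 CPM in mutant larvae, against 2.60, 2.296 and 2.38 CPM in WT larvae (log2 fold change 2.04, SE 0.22, adjusted p = 4.73e-05). It is cut by the product of *hyal2a*, which averaged 8.51 ± 0.374 CPM in mutant and 2.60 ± 0.948 CPM in WT larvae (log2 fold change 1.71, SE 0.23, adjusted p = 0.000301). The other 3 were *bmp2b*, *bmp4* and *fn1b*, which have roles in many tissues and are described above. Among 31 endothelial genes, the angiopoietin gene *angpt2b* had 49.6, 35.3 and 59.3 CPM in mutant larvae, against 4.5997, 3.29 and 5.50 CPM in WT larvae (log2 fold change 3.42, SE 0.29, adjusted p = 8.69e-06). *she* was higher too (log2 fold change 1.55, SE 0.29, adjusted p = 0.00293), while the water channel gene *aqp8a.1* was called lower (log2 fold change −1.43, SE 0.27, adjusted p = 0.00295, not called without WT replicate 3). Of the endothelial genes, 6.45% were called higher and 3.23% lower, near the 3.84% and 3.8% of all genes. None of 26 erythroid genes was called, against 7.64% of all genes in either direction.

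Of 36 complement genes, 12 were called higher and 3 lower, 9 and 2 of them without each library in turn, with a median of 0.63. Without mutant replicate 2 or without WT replicate 2, 5 were called lower. The C3 genes are tandem copies in zebrafish, of which *c3a.1* had 1390.3, 1789 and 1505 CPM in mutant larvae, against 610.3, 523 and 651 CPM in WT larvae (log2 fold change 1.39, SE 0.15, adjusted p = 6.77e-05). *c3a.3* had 41.7, 76.6 and 63.9 CPM in mutant larvae, against 10.04, 8.69 and 16.2 CPM in WT larvae (log2 fold change 2.38, SE 0.36, adjusted p = 0.000664), and *c3a.6* rose as well (log2 fold change 1.35, SE 0.15, adjusted p = 6.81e-05). Factor B (*cfb*), part of the C3 convertase, averaged 444 ± 22.2 CPM in mutant and 177 ± 35.4 CPM in WT larvae (log2 fold change 1.33, SE 0.15, adjusted p = 8.58e-05), and the membrane attack component *c7a* 48.2 ± 2.34 CPM in mutant and 20.3 ± 1.72 CPM in WT larvae (log2 fold change 1.249, SE 0.11, adjusted p = 1.17e-05). A gene named *c6* (ENSDARG00000057113) had 151, 166 and 155 CPM in mutant larvae, against 26.0, 28.2 and 44.4 CPM in WT larvae (log2 fold change 2.26, SE 0.20, adjusted p = 1.18e-05). The stress-induced chaperone clusterin (*clu*) had 126, 145 and 87.3 CPM in mutant larvae, against 14.3, 14.0 and 23.2 CPM in WT larvae (log2 fold change 2.80, SE 0.23, adjusted p = 8.22e-06). Called lower were the lectin gene *hbl3* (log2 fold change −3.96, SE 0.80, adjusted p = 0.00444, −2.71 without WT replicate 3), factor D (*cfd*, 5.16, 5.61 and 5.67 CPM in mutant larvae, against 19.5, 17.005 and 32.8 CPM in WT larvae, log2 fold change −2.07, SE 0.21, adjusted p = 3.93e-05) and *cd59* (log2 fold change −1.99, SE 0.50, adjusted p = 0.0169, −1.36 without WT replicate 3, not called without mutant replicate 1 or mutant replicate 3). Of 31 genes of neutrophils and macrophages, 4 were called higher, 3 of which (*mmp9*, *mmp13a* and *il34*) are also made by other cells. The other was *mpeg1.2*, of the macrophage perforin family (3.196, 4.71 and 3.49 CPM in mutant larvae, against 0.517, 0.404 and 0.704 CPM in WT larvae, log2 fold change 2.80, SE 0.35, adjusted p = 0.000181). The summed level of this list was 1459 to 1831 CPM in mutant and 1399 to 1947 CPM in WT larvae. Without mutant replicate 3, 2 of the 4 were called. Of 22 acute phase and inflammation genes, 7 were called higher and 1 lower. Besides *mmp9* and *timp2b* they included the prostaglandin synthase gene *ptgs2b*, with 10.5, 8.81 and 11.01 CPM in mutant larvae, against 2.37, 2.61 and 2.197 CPM in WT larvae (log2 fold change 2.08, SE 0.25, adjusted p = 0.000141). *irg1l*, a gene of inflamed zebrafish epidermis and macrophages, rose as well (log2 fold change 1.80, SE 0.21, adjusted p = 8.72e-05), as did the annexin gene *anxa2a* (log2 fold change 1.71, SE 0.24, adjusted p = 0.000443), and the lipocalin gene *lcn15* was lower (log2 fold change −1.37, SE 0.21, adjusted p = 0.000837).

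Liver genes did not move as 1 group. Of 47 plasma protein genes, 4 were called lower and 2 higher (8.51% and 4.26%, against 3.8% and 3.84% of all genes). Angiotensinogen (*agt*) had 15.11, 32.996 and 32.8 CPM in mutant larvae, against 4.14, 6.65 and 8.79 CPM in WT larvae (log2 fold change 2.05, SE 0.35, adjusted p = 0.00159). In contrast *uox*, which encodes urate oxidase, had 0.562, 0.426 and 0.347 CPM in mutant larvae, against 4.53, 3.63 and 6.04 CPM in WT larvae (log2 fold change −3.41, SE 0.31, adjusted p = 1.59e-05). The liver fatty acid binding protein gene *fabp10a* averaged 0.885 ± 0.216 CPM in mutant and 2.98 ± 1.43 CPM in WT larvae (log2 fold change −1.75, SE 0.37, adjusted p = 0.00618). The summed level of the 47 was 17417 to 20442 CPM in mutant and 19978 to 25797 CPM in WT larvae. Of 28 apolipoprotein and lipid genes, *lpl*, a lipase, was higher (log2 fold change 1.26, SE 0.12, adjusted p = 2.07e-05), as was *apof* (log2 fold change 1.27, SE 0.20, adjusted p = 0.000946). In the pancreas, 3 of 22 were called lower (13.6%, against 3.8% of all genes), all without each library in turn. Insulin (*ins*) had 5.84, 5.22 and 5.95 CPM in mutant larvae, against 11.8, 12.4 and 20.6 CPM in WT larvae (log2 fold change −1.40, SE 0.21, adjusted p = 0.000629). The acinar chaperone gene *pdia2* had 1.18, 0.801 and 0.986 CPM in mutant larvae, against 2.12, 2.85 and 4.58 CPM in WT larvae (log2 fold change −1.68, SE 0.30, adjusted p = 0.00219). The other was the endocrine factor *neurod1*, given above as a neuronal factor, and whole larvae do not show which tissue its RNA came from. In the intestine, 6 of 25 were called lower and none higher, led by *rbp2b*, a retinol carrier of enterocytes (6.51, 7.96 and 10.6 CPM in mutant larvae, against 19.6, 27.3 and 51.5 CPM in WT larvae, log2 fold change −1.97, SE 0.30, adjusted p = 0.000718), and the microvillus gene *vil1* (log2 fold change −1.43, SE 0.35, adjusted p = 0.0151, not called without mutant replicate 1). Without mutant replicate 1 or without WT replicate 3, 3 of the 6 were called. Only 1 of the 6 intestine genes was called without each library in turn.

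Skin and ion balance genes moved in part. Of 43 epidermal genes, 6.98% were called higher and 6.98% lower, against 3.84% and 3.8% of all genes. Keratin genes among them went both ways. The basal keratinocyte keratin *krtt1c19e* had 1628, 1462 and 1430.0 CPM in mutant larvae, against 3334, 2471 and 4641 CPM in WT larvae (log2 fold change −1.21, SE 0.20, adjusted p = 0.0014, not called without WT replicate 3). *krt97* had 759.6, 544 and 580.1 CPM in mutant larvae, against 285, 248 and 291 CPM in WT larvae (log2 fold change 1.19, SE 0.20, adjusted p = 0.00131). E-cadherin (*cdh1*) had 275, 272 and 285 CPM in mutant larvae, against 137, 120.4 and 122 CPM in WT larvae (log2 fold change 1.13, SE 0.09, adjusted p = 7.54e-06). Parathyroid hormone genes, which control calcium, were higher. *pth1a* had 4.03, 4.43 and 6.68 CPM in mutant larvae, against 0.148, 0.106 and 0.721 CPM in WT larvae (log2 fold change 3.95, SE 0.57, adjusted p = 0.000486, 5.26 without WT replicate 3), and *pth1b* averaged 1.84 ± 0.698 CPM in mutant and 0.287 ± 0.219 CPM in WT larvae (log2 fold change 2.66, SE 0.46, adjusted p = 0.00178, 3.45 without WT replicate 3). *cyp24a1*, which breaks down active vitamin D, had 61.2, 60.9 and 51.1 CPM in mutant larvae, against 6.72, 3.32 and 9.27 CPM in WT larvae (log2 fold change 3.16, SE 0.30, adjusted p = 1.86e-05). The calcium channel gene TRPV6 (ENSDARG00000014496) was lower (log2 fold change −1.12, SE 0.34, adjusted p = 0.0395, not called without mutant replicate 1, mutant replicate 2, mutant replicate 3, WT replicate 1 or WT replicate 3). Of 39 genes of ionocytes and ion transport, these 3 were called higher and 2 lower (7.69% and 5.13%, against 3.84% and 3.8% of all genes). Without mutant replicate 3, 5 ion genes were higher, and without WT replicate 1 or 3, 5 epidermal genes were.

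In the ear, genes of the otolith and of the membrane above the hair cells split. Of 45 tested, 6 were called lower and 6 higher, 5 and 4 of them without each library in turn. The tectorin gene *tectb* had 0.639, 0.726 and 0.7998 CPM in mutant larvae, against 11.6, 10.1 and 13.3 CPM in WT larvae (log2 fold change −4.02, SE 0.18, adjusted p = 5.99e-07). *otomp*, an otolith matrix gene, had 1.82, 2.15 and 1.01 CPM in mutant larvae, against 16.7, 18.5 and 14.2 CPM in WT larvae (log2 fold change −3.31, SE 0.34, adjusted p = 3.79e-05). *stm*, which encodes Starmaker, was lower (63.7, 46.9 and 43.7 CPM in mutant larvae, against 184, 114 and 100.1 CPM in WT larvae, log2 fold change −1.37, SE 0.24, adjusted p = 0.00165). In contrast, *oc90*, which encodes the otoconin of otolith seeding, had 115, 103 and 94.1 CPM in mutant larvae, against 4.18, 6.61 and 9.73 CPM in WT larvae (log2 fold change 3.93, SE 0.37, adjusted p = 1.93e-05). In the notochord, 7 of 31 genes were lower and 5 higher. *entpd5a*, which marks the segments of the zebrafish notochord sheath that mineralize, had 0.588, 0.739 and 0.293 CPM in mutant larvae, against 2.66, 3.76 and 3.09 CPM in WT larvae (log2 fold change −2.54, SE 0.34, adjusted p = 0.0003). The notochord determinant *noto* had 3.86, 3.32 and 3.84 CPM in mutant larvae, against 0.713, 0.404 and 0.654 CPM in WT larvae (log2 fold change 2.62, SE 0.26, adjusted p = 3.09e-05). Without mutant replicate 3, 3 notochord genes were called higher. In the kidney, 4 of 28 genes (14.3%, against 3.8% of all genes) were lower and none higher, among them the transporter gene *slc13a3* (log2 fold change −1.38, SE 0.21, adjusted p = 0.000644). Without mutant replicate 2 or without WT replicate 3, 2 of the 4 were called.

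Since larvae of both genotypes received an inhibitor of mTORC1, genes of growth and amino acid supply are given as a group. Genes of the Atf4 response, which supplies amino acids and charges tRNAs under stress, were higher: 25 of 38 had an adjusted p under 0.05 in this direction, 11 of them at 2-fold or more, 7 of these without each library in turn, and the median was 0.67. Of all genes tested, 9.11% had an adjusted p under 0.05 in this direction. The transcription factor *atf5b* had 69.4, 54.6 and 62.2 CPM in mutant larvae, against 16.1, 13.7 and 19.3 CPM in WT larvae (log2 fold change 1.92, SE 0.16, adjusted p = 8.35e-06). *atf5a* averaged 27.9 ± 3.54 CPM in mutant and 9.83 ± 0.135 CPM in WT larvae (log2 fold change 1.51, SE 0.13, adjusted p = 9.48e-06). Asparagine synthetase, ASNS (ENSDARG00000016375), had 47.5, 49.0 and 52.9 CPM in mutant larvae, against 20.5, 20.04 and 17.7 CPM in WT larvae (log2 fold change 1.36, SE 0.10, adjusted p = 2.92e-06). The amino acid transporter SLC7A3 (ENSDARG00000020645) had 42.7, 43.1 and 49.2 CPM in mutant larvae, against 18.8, 17.6 and 15.9 CPM in WT larvae (log2 fold change 1.37, SE 0.11, adjusted p = 6.94e-06). The asparaginyl-tRNA synthetase NARS1 (ENSDARG00000061100, log2 fold change 1.18, SE 0.15, adjusted p = 0.000216), the pseudokinase TRIB3 (ENSDARG00000016200, log2 fold change 1.13, SE 0.10, adjusted p = 1.36e-05) and *sesn2*, whose product restrains mTORC1 (30.0, 24.8 and 28.5 CPM in mutant larvae, against 9.48, 6.27 and 13.9 CPM in WT larvae, log2 fold change 1.49, SE 0.23, adjusted p = 0.000788), rose as well. *stc2b* was called lower with overlapping groups (log2 fold change −1.54, SE 0.42, adjusted p = 0.0245, not called without mutant replicate 2, mutant replicate 3, WT replicate 1 or WT replicate 2). None of 37 mTORC1 pathway genes was called, against 7.64% of all genes in either direction. Of the 37, 5 had an adjusted p under 0.05 in the higher and 2 in the lower direction. Of 22 p53 response genes, 4 were called higher and none lower, 2 of them without each library in turn, *gadd45ab* (log2 fold change 1.26, SE 0.20, adjusted p = 0.000996) and *fas* (log2 fold change 1.497, SE 0.32, adjusted p = 0.00654). Without mutant replicate 1, 2 were called.

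Ribosome, cell cycle and mitochondrial genes gave no call at 2-fold, against 7.64% of all genes in either direction. For ribosome biogenesis, 22 of 56 genes had an adjusted p under 0.05 and all 22 were higher in mutant larvae, such as BOP1 (ENSDARG00000063627, log2 fold change 0.82, SE 0.12, adjusted p = 0.000704) and *npm1a* (log2 fold change 0.64, SE 0.15, adjusted p = 0.0119), with a median of 0.44. For the cell cycle, 15 of 40 had an adjusted p under 0.05 and all 15 were lower, such as the ribonucleotide reductase gene RRM2 (ENSDARG00000020711, log2 fold change −0.71, SE 0.13, adjusted p = 0.00228) and CDK1 (ENSDARG00000087554, log2 fold change −0.56, SE 0.11, adjusted p = 0.00309), with a median of −0.35. Such a p was found for 9.11% of all genes in the higher and 8.28% in the lower direction. The cell cycle median was −0.30 without WT replicate 3 and −0.42 without WT replicate 2. The ribosome biogenesis median was 0.65 without WT replicate 3 and 0.29 without WT replicate 2. None of 73 cytoplasmic ribosomal protein genes passed, and their median of 0.18 was 0.41 without WT replicate 3 and 0.006 without WT replicate 2. Respiratory chain genes (62) and Hox genes (47) also had no call. In the glycolysis and hypoxia list, 3 of 51 genes were called higher and 2 lower (5.88% and 3.92%, near the 3.84% and 3.8% of all genes). The growth factor binding protein gene *igfbp1a*, which responds to hypoxia and nutrient shortage, had 177, 151 and 156 CPM in mutant larvae, against 13.9, 9.46 and 23.4 CPM in WT larvae (log2 fold change 3.37, SE 0.29, adjusted p = 9.11e-06). Hexokinase 2 (*hk2*) averaged 34.1 ± 7.75 CPM in mutant and 14.6 ± 5.78 CPM in WT larvae (log2 fold change 1.23, SE 0.25, adjusted p = 0.00458). Of 26 sterol synthesis genes, HSD17B7 (ENSDARG00000088140) was called, lower in mutant larvae (log2 fold change −1.08, SE 0.13, adjusted p = 0.000145). Of 34 Polycomb, Myc and Spalt genes, *cbx7a*, *sall1b* (37.5, 30.9 and 37.9 CPM in mutant larvae, against 2.15, 1.57 and 3.57 CPM in WT larvae, log2 fold change 3.86, SE 0.33, adjusted p = 9.3e-06), *sall4* (log2 fold change 1.45, SE 0.26, adjusted p = 0.00199) and *myca* (log2 fold change 1.08, SE 0.14, adjusted p = 0.000197, not called without WT replicate 2) were higher.

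The same genes were compared in the libraries given vehicle, which share no sample with the rapamycin comparison but enter the same model and carry the same replicate numbers. In vehicle, mutant larvae had 862 genes called higher (3.77%) and 748 called lower (3.27%). Called in the same direction under both treatments were 1275 genes, 73.0% of those called in rapamycin and 79.2% of those called in vehicle. For genes higher in mutant larvae the shares were 80.2% and 81.7%, and for genes lower in mutant larvae 65.8% and 76.3%. The plot of both treatments shows the list members near the line of equal change. *axin2* had a log2 fold change of 1.87 in rapamycin and 1.68 in vehicle, *il11a* 4.84 and 5.90, *matn1* −6.81 and −6.66, *gsc* −3.83 and −3.29, and *col6a1* 1.87 and 1.57. Of the 470 genes called in rapamycin and not in vehicle, 435 had the same sign in vehicle, 157 of them with an adjusted p under 0.05, and 90 of the 470 were called without each rapamycin library in turn. Among Atf4 response genes, 11 were called higher in rapamycin and 5 in vehicle. A test of the difference between the 2 treatments, the interaction of genotype and rapamycin, had no gene with an adjusted p under 0.05 in edgeR, in the Atf4 list or elsewhere, and 364 genes (1.59%) with an unadjusted p under 0.05. DESeq2 gave 2 genes. The unequal counts of called genes therefore do not show a difference between the treatments. The lack of calls does not show equal effects either. In edgeR, 1033 genes had an unadjusted p under 0.05 without WT replicate 2 and 1028 without WT replicate 3, again with 0 after adjustment.

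**Figure D5:**
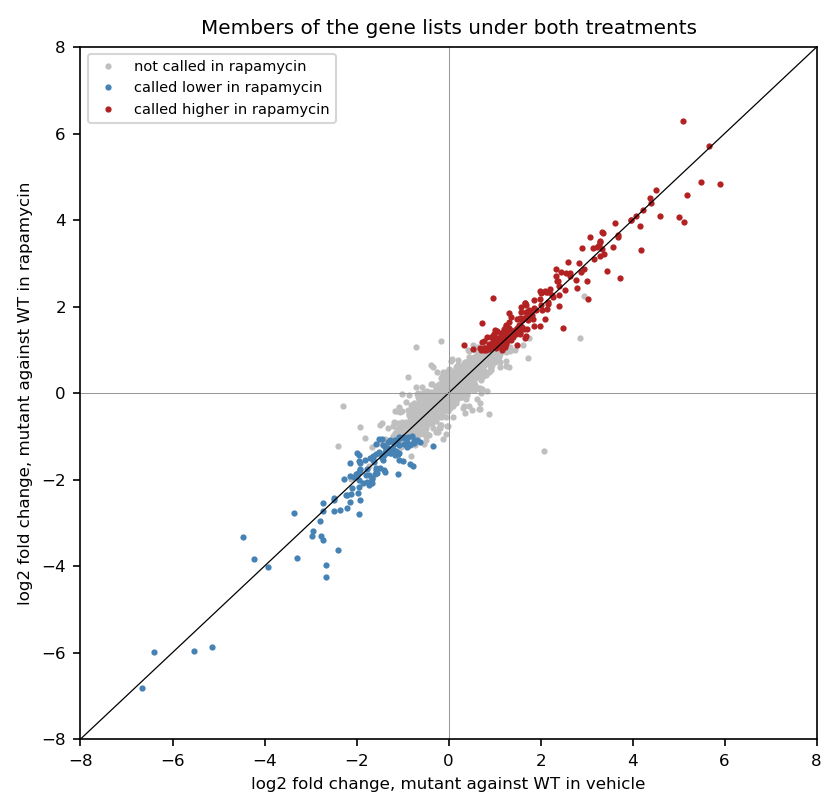
Log2 fold change of mutant against WT larvae in rapamycin (vertical axis) and in vehicle (horizontal axis) for the 1714 tested members of the gene lists, coloured by the call in rapamycin, with a line of equal change. Genes called in rapamycin lie near the line, as *axin2* (1.87 and 1.68) and *matn1* (−6.81 and −6.66) do.

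Some calls rested on WT replicate 2. It was at least 4-fold above or below each of the other 5 libraries for 64 called genes, against 7 for WT replicate 3 and 3 for WT replicate 1. Of the 470 genes called in rapamycin alone, 56 were of this kind. Among the 15 lowest genes, 5 were not called without WT replicate 2. These 5 were also not called without mutant replicate 1, mutant replicate 2 or mutant replicate 3. *hist1h2a8*, named as a histone H2A gene, had 7, 11 and 5 counts in mutant larvae, against 12, 582 and 21 counts in WT larvae. *zgc:153409* had 19, 19 and 10 counts in mutant larvae, against 20, 1310 and 15 counts in WT larvae. Without WT replicate 2 the log2 fold changes of *hist1h2a8*, *zgc:153409*, *zgc:153405*, *si:ch1073-159d7.4* and *si:dkey-108k21.10* were −1.34, −0.31, −0.79, −0.87 and −0.76, and none was called. Of 8 tested genes with such a histone name, chosen after these values were seen, 5 were called lower, WT replicate 2 was the highest of the 6 libraries in all 5, and none was called without it. Transcripts of replication histones mostly lack a poly-A tail. WT replicate 2 was also the library with 12.9% of its counts on an rRNA gene, and the part of this share in these calls was not tested.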

How the data were processed

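RNA-seq of poly-A RNA from pools of 20 whole zebrafish was compared in 12 libraries of 4 groups, with 3 replicates each. Per the labels, reads were processed with Salmon on GRCz10, whereas the series description names STAR, so which tool gave the gene values is not settled. The authors deposited 1 table of estimated counts per gene, not normalized and with values that need not be whole, and these were rounded to whole numbers here. Gene names came from the study's own tables for 1778 and 204 genes and from a table of Ensembl names for 20959, and 2961 of 25902 genes had none. All sample columns of the table were used (0 left out).

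Counts were TMM-scaled and filtered with filterByExpr (minimum count 10), and 1 model of the 4 groups was fitted with edgeR 4.0.16 in R 4.3.3 (quasi-likelihood F test, limma 3.58.1, Benjamini-Hochberg adjustment over all genes tested). DESeq2 1.42.0 was an alternative. Scripts were tested on simulated data. Calls required both a change of 2-fold or more and an adjusted p under 0.05. The interaction of genotype and treatment was called at an adjusted p under 0.05. Total counts per library limit the precision of genes with few counts, and p-values cover only the spread between pools. An exact permutation test of 3 against 3 libraries cannot give a two-sided p below 0.1 and was not used.

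Named genes are the members of 49 lists, *apc*, and the extremes of the called genes (15 at each end by log2 fold change), restricted to those averaging 100 counts or more in the rapamycin libraries, with no overlap of the groups, and called also without WT replicate 3. Members and lists were chosen with earlier results of these data known. Of 1871 list symbols, 155 matched no gene and 456 matched only without their paralog letter, which gave 1714 distinct genes tested. Same-numbered mutant and WT libraries in rapamycin deviated together from their group means (correlations over genes 0.304, 0.224 and 0.284, against −0.211 to −0.00266 for the other pairs). Deviations within a group cancel out, so a positive pair pushes the others below it, and the negative values add no separate support. The replicate numbers were therefore taken to pair the libraries, although the labels do not say what same-numbered libraries share, and a fit with the replicate number as a block was run as an alternative. Values and calls given above come from the fit without this block, unless the block is named. The other alternatives changed the scaling (RLE or upper quartile), the filter (none, or 10 counts in every library), the libraries fitted (the 6 given rapamycin alone, or all but 1) or the fold criterion (glmTreat against 2-fold, or none). A planned search of promoters for a Tcf/Lef motif was not run. Values of some list members are not reported here.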

Additional observations from a re-analysis of the deposited data

Results flagged for a closer look

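The effect of the mutation differed between rapamycin and vehicle for 2 genes by the interaction test of DESeq2, and by that tool only. For *ptprt* (ENSDARG00000097572), a receptor tyrosine phosphatase gene, the adjusted p of the interaction was 0.00578 with DESeq2 (log2 3.22) and 0.8 with edgeR (log2 3.21, SE 0.54). It had 35, 23 and 36 counts in mutant and 26, 10 and 8 counts in WT larvae given rapamycin (edgeR log2 fold change 0.84, adjusted p = 0.166). In vehicle it had 11, 12 and 13 counts in mutant and 48, 63 and 88 counts in WT larvae (edgeR log2 fold change −2.37, adjusted p = 0.0012). For *si:dkey-26m3.2* (ENSDARG00000104925) the adjusted p of the interaction was 0.00211 with DESeq2 and 0.8 with edgeR. It had 1, 0 and 0 counts in mutant and 16, 16 and 9 counts in WT larvae given rapamycin, and 5, 4 and 23 counts in mutant and 0, 0 and 0 counts in WT larvae given vehicle. In edgeR, *si:dkey-26m3.2* was called lower in mutant larvae in rapamycin (log2 fold change −5.25, adjusted p = 0.00984). In vehicle it was called higher (log2 fold change 6.40, adjusted p = 0.0124), with no WT count. It was the only gene called under both treatments in opposite directions. Both genes have few counts, and neither passed the interaction test in edgeR.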

How the results depend on the processing

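Of 1746 genes called, 878 were higher and 868 lower. DESeq2 called 1851 (911 higher, 940 lower), RLE size factors 1752 (869 higher, 883 lower), no filter 1767, and at least 10 counts in each library 1524. Upper-quartile size factors called 1789 (783 higher, 1006 lower), which made 43.8% of calls higher, against 50.3% with TMM, and moved the median log2 fold change of all genes to −0.0996. In the 6 rapamycin libraries alone 1246 genes were called, 704 higher and 542 lower. A test against the 2-fold threshold itself (glmTreat) called 574 (354 higher, 220 lower), and no fold minimum 3972 (2080 higher, 1892 lower). Of the members of the gene lists, 306 were called, against 145 with glmTreat and 590 with no fold minimum. Leaving out 1 library gave 1443 to 2166 called genes, 794 to 968 higher and 649 to 1198 lower, with 280 to 333 list members. The highest totals came without WT replicate 3 (2166, with 968 higher and 1198 lower). For the interaction, DESeq2 called 2 genes, and edgeR 0 in its fit of all libraries and 0 whichever library was left out. The fit with the replicate block called 1839 genes (947 higher, 892 lower). Of the 30 genes at the extremes, 27 stayed called under the block, and *zgc:153409* (adjusted p = 0.073), *zgc:153405* (adjusted p = 0.054) and *si:dkey-108k21.10* (adjusted p = 0.05) did not. Of the other genes named, only *rho* lost its call under the block (log2 fold change −0.98). The cause of these shifts was not tested. With WT groups that vary this much, differences of less than 2-fold in genes with few counts are not resolved.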
